A study of Mus musculus with 20 samples.

Results

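The genes described here encode 8 proteins that coat lipid droplets or build them: the perilipins Plin1, Plin2, Plin3, Plin4 and Plin5, the droplet fusion protein Cidec, and the endoplasmic reticulum proteins Bscl2 and Fitm2. They were chosen by name from the 36611 genes of the table, and their level is the sum over their transcripts. RNA was sequenced from the groin fat depot (inguinal iWAT, a subcutaneous white fat) of 20 C57BL/6 females, 5 in each of 4 groups. Control mice, labelled wild type, carried Tmem120a with floxed exons on both alleles and no Cre. Ad-Tmem120a-/- mice were littermates that also carried Cre under the adiponectin promoter, so that the deletion is made in mature adipocytes and not in the other cells of the depot. All mice were 6 months old and had been kept for 15 weeks on a diet with 10.5% fat (low fat diet, LFD) or with 58% fat (high fat diet, HFD). Each library is 1 mouse. Levels are given as TPM, the share of a transcript among all transcripts after division by its length, scaled to a fixed total in every library, and values stand in the order of the replicate numbers.

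A lipid droplet is a core of triglyceride under a single layer of phospholipid and protein. In white adipocytes 1 droplet fills most of the cell. Bscl2 (seipin) and Fitm2 act in the endoplasmic reticulum, where droplets form. The perilipins bind the droplet surface and control the access of lipases, and Cidec moves lipid from smaller to larger droplets at their contact sites. In people, loss of PLIN1, CIDEC or BSCL2 function causes forms of lipodystrophy, in which fat tissue is lost.

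Tmem120a, the targeted gene, had a mean of 85.4 ± 28.4 TPM (SD, n = 5) in control mice on LFD against 41.5 ± 21.9 TPM in Ad-Tmem120a-/- mice, and of 119 ± 44.5 TPM against 51.6 ± 26.7 TPM on HFD. The difference had a p of 0.0317 on LFD and 0.0159 on HFD (two-sided exact permutation tests), both 0.0635 after adjustment over 4 comparisons, and the groups overlapped on both diets. By edgeR the log2 fold changes were -1.61 ± 0.34 and -1.67 ± 0.29, with adjusted p-values of 0.929 and 0.173 over all genes. Adipocyte genes were abundant in every library: 12 white adipocyte markers (Adipoq, Lep, Fabp4 and others) summed to between 29919 and 65604 TPM. Markers of other cells varied widely: 12 fast muscle genes summed to between 10.6 and 3898 TPM in control mice on LFD, between 9.8 and 59.7 TPM in control mice on HFD, between 17.6 and 1244 TPM in the knockout on LFD and between 49.4 and 1652 TPM in the knockout on HFD. Libraries held from 54605101 to 92387737 estimated counts, and each of the 8 genes had at least 86 estimated counts in every library. In bulk tissue, fewer adipocytes and less RNA per adipocyte cannot be told apart.

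The order of the levels was nearly the same in every mouse. Over the 20 libraries Cidec had the highest mean at 620 TPM, followed by Plin2 at 371 TPM, Plin4 at 275 TPM, Plin1 at 161 TPM, Bscl2 at 78.1 TPM, Fitm2 at 24.0 TPM, Plin3 at 16.6 TPM and Plin5 at 2.35 TPM. Cidec was above Plin2, Plin1 above Bscl2, Bscl2 above Fitm2, Fitm2 above Plin3 and Plin3 above Plin5 in 20 of 20 libraries. Plin2 was above Plin4 in 18 and Plin4 above Plin1 in 19 of 20, so these neighbours were not parted in every mouse. The place of Plin2 counts all its transcripts, including a non-coding one described below. Cidec ranked between place 68 and place 203 among all genes of a library. Plin5 ranked between place 8152 and place 14329.

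**Figure D1:**
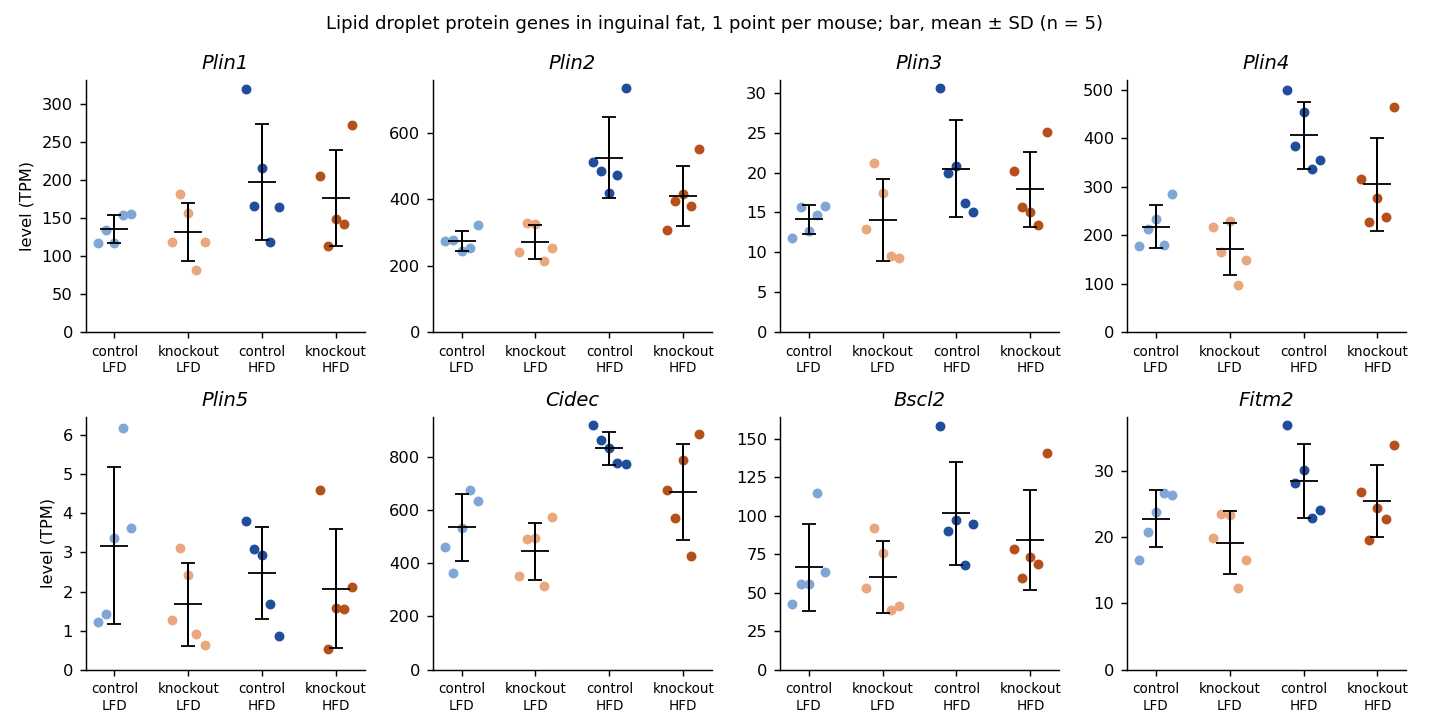
Level of each gene in TPM (y axis, from 0) in the 4 groups (x axis), with 1 point per mouse and a bar at the mean with the SD (n = 5). Plin2, Plin4 and Cidec in control mice on HFD all lie above the control mice on LFD. Groups overlap in every comparison for Plin1, Plin3, Plin5, Bscl2 and Fitm2.

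Levels of Plin2 and Cidec depend on which annotated transcripts received the reads. Plin2 (ENSMUSG00000028494) lies at chr4:86294290-86315964 on the minus strand of NCBIM37, and 8 transcripts are annotated. The transcript Plin2-007, of 3 exons and 588 bases, is annotated without a coding frame. It took on average between 51.1% and 62.5% of the Plin2 level in the 4 groups. The coding transcript Plin2-001 took between 33.8% and 42.8%. Its means were 116 and 105 TPM in control and knockout mice on LFD, and 175 and 141 TPM on HFD. In each group this lay below the means of Plin4 and Plin1, so the coding form alone would not hold the place of Plin2 in the order. The Plin1 means were 136, 132, 198 and 177 TPM in the same order of groups. Plin2-007 shares 394 bases with Plin2-001 and adds a separate exon at chr4:86294290-86294483, 7986 bases beyond the end of Plin2-001. All 6 stretches of 30 bases tiled over that exon occurred once in the assembly. It is shown because it is the only part of Plin2-007 that can tell its reads from those of the coding transcript, as the strand of the transcript, 5′ to 3′:
Plin2-007 last exon: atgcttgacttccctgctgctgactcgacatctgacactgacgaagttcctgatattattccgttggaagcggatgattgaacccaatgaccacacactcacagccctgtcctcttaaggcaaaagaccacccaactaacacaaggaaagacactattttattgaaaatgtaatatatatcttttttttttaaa

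Plin2-007 differed more between the diets than Plin2-001, as a description without a test. Plin2-007 was at 187, 152, 110, 73.9 and 192 TPM in control mice on LFD and at 241, 290, 262, 344 and 516 TPM in control mice on HFD. No mouse on LFD reached the lowest on HFD. Plin2-001 was at 77.7, 108, 122, 163 and 108 TPM on LFD and at 255, 178, 142, 105 and 195 TPM on HFD, and here the groups overlapped. In the knockout Plin2-007 was at 125, 121, 183, 150 and 179 TPM on LFD and 163, 282, 291, 215 and 286 TPM on HFD, where 1 of 5 mice on HFD lay within the LFD range. Plin2-001 was at 106, 188, 122, 54.7 and 52.6 TPM and 131, 93.2, 95.5, 146 and 240 TPM, with wide overlap. How the quantification shared reads of the 394 common bases between both transcripts was not tested.

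**Figure D2:**
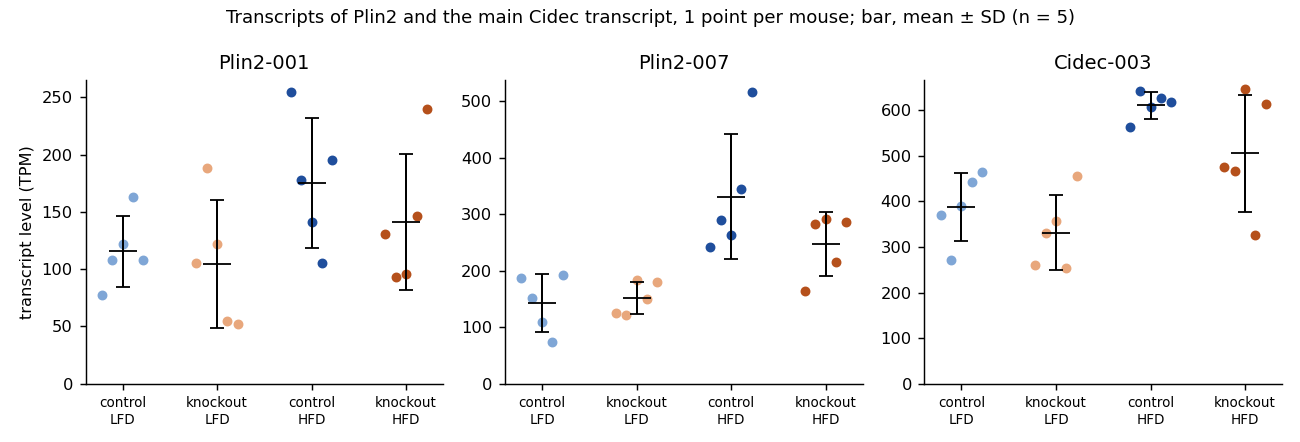
Level in TPM (y axis, from 0) of the coding Plin2-001, of Plin2-007, annotated as non-coding, and of Cidec-003 in the 4 groups. Each mouse is 1 point, and a bar marks the mean with the SD (n = 5). Plin2-007 and Cidec-003 part control mice on HFD from control mice on LFD, and Plin2-001 does not.

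Cidec (ENSMUSG00000030278) lies at chr6:113374628-113385754 on the minus strand of NCBIM37. Cidec-003, of 785 bases, took on average between 73.1% and 76.0% of its level in the 4 groups. Cidec-002 and Cidec-001 took between 15.6% and 16.7% and between 7.1% and 10.9%. Their coding frames hold 720 bases each and are identical. Cidec-003 holds the same 720 bases after 30 further coding bases at the start. The first 60 coding bases of both forms are shown, 5′ to 3′, with the added bases in capitals:
Cidec-001: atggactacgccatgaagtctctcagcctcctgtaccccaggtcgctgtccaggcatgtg
Cidec-003: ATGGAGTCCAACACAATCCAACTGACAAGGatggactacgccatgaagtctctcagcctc

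Cidec-003 was at 370, 271, 390, 442 and 464 TPM in control mice on LFD and at 564, 643, 606, 626 and 617 TPM on HFD, and the groups did not overlap. Its share of the Cidec level differed little between the diets, with means of 73.1% and 73.8%. Cidec-003 is annotated with almost no sequence after its stop codon, so its short length raises its TPM for the same number of reads. Of the other genes, Plin1, Plin3, Plin4 and Fitm2 have 1 transcript each. Plin5 has 2 of equal length, and Bscl2 has 10, of which Bscl2-008 took between 82.0% and 90.5%. Plin4 overlaps Hdgfrp2, Bscl2 overlaps Gng3 and Fitm2 overlaps 2310001K24Rik, each on the other strand. The library kit keeps the strand, and whether the quantification used it is not given in the sources used here.

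On HFD, Plin4 rose in control mice. Plin4 is a perilipin of adipocytes that coats small, newly made droplets. It was at 178, 212, 234, 181 and 286 TPM in control mice on LFD and at 501, 384, 456, 337 and 357 TPM on HFD, so all 5 mice on HFD lay above all 5 on LFD. By edgeR's quasi-likelihood test on the counts, the log2 fold change was 0.74 ± 0.18 (SE), a fold of 1.67, with an adjusted p of 0.0403. It was the only one of the 8 genes called at an adjusted p under 0.1. Over all genes 9.32% of 15311 were called. Without control mouse 2 on LFD the adjusted p was 0.101, and the call was lost.

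Plin2 and Cidec had the next largest differences with HFD higher. Plin2, the coat of droplets in most cell types, was at 276, 277, 246, 254 and 323 TPM in control mice on LFD and 511, 486, 419, 473 and 734 TPM on HFD. Cidec was at 463, 365, 533, 677 and 636 TPM and 919, 862, 832, 777 and 772 TPM. For both genes every control mouse on HFD lay above every one on LFD. Groups parted in this way, with HFD higher, for 3 of the 8 genes and for 8.32% of all genes tested. The log2 fold change on the counts was 0.52 ± 0.20 for Plin2 (edgeR adjusted p = 0.160) and 0.40 ± 0.21 for Cidec (adjusted p = 0.313), and neither passed the test.

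The difference of Plin2 depended on how reads were turned into a gene level. With offsets for the mean transcript length of the gene in each library, edgeR gave Plin2 a log2 fold change of 0.76 ± 0.17 and an adjusted p of 0.0312. limma on log2(TPM + 1) gave 0.91 ± 0.16 on that scale and an adjusted p of 0.00939. DESeq2 on the counts gave 0.53 ± 0.20 and an adjusted p of 0.0732. limma also called Cidec, at 0.67 ± 0.17 and an adjusted p of 0.0379. On the TPM scale the median of all genes stood at 0.13, against -0.04 on the counts, so genes at large also stood higher on HFD on the TPM scale.

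The remaining genes did not pass the test for diet in control mice. Plin1, which coats the large adipocyte droplet and holds back lipolysis, was at 118, 134, 118, 155 and 156 TPM on LFD and 320, 167, 217, 119 and 166 TPM on HFD, where 4 of 5 mice lay above all mice on LFD. Plin3, a cytosolic perilipin that moves onto new droplets, was at 11.8, 15.7, 12.7, 14.6 and 15.8 TPM and 30.5, 19.9, 20.8, 16.2 and 15.0 TPM, with 4 of 5 above. Control mouse 11 was the highest of its group for both genes. For Bscl2, which sits where the endoplasmic reticulum meets the droplet, values were 42.8, 55.9, 55.5, 115 and 63.3 TPM on LFD and 158, 90.2, 97.1, 67.7 and 94.4 TPM on HFD. Fitm2, which promotes droplet formation, was at 16.5, 20.8, 23.7, 26.6 and 26.4 TPM and 36.9, 28.1, 30.2, 22.9 and 24.1 TPM. Their log2 fold changes were 0.39 ± 0.23 for Plin1, 0.34 ± 0.16 for Plin3, 0.37 ± 0.28 for Bscl2 and 0.10 ± 0.17 for Fitm2, with edgeR adjusted p-values of 0.373, 0.249, 0.508 and 0.800. Plin5 was the 1 gene of the 8 with a value below 0, at -0.60 ± 0.48 (edgeR adjusted p = 0.538). Without control mouse 4 on LFD, which held the highest Bscl2 level of its group, Bscl2 was called at 0.70 ± 0.20 and Plin2 at 0.67 ± 0.18, with adjusted p-values of 0.0723 and 0.0625.

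In Ad-Tmem120a-/- mice none of the 8 genes was called for diet, against 9.4% of 15705 genes. Plin4 was at 217, 165, 229, 97.8 and 149 TPM on LFD and 317, 227, 278, 239 and 465 TPM on HFD, with 4 of 5 mice on HFD above all on LFD. Its log2 fold change was 0.78 ± 0.26, with an edgeR adjusted p of 0.106. DESeq2, limma and the fit over all 20 libraries did call it, at adjusted p-values of 0.0185, 0.0875 and 0.0402. Plin2 was at 242, 328, 326, 215 and 252.3 TPM and 308, 395, 415, 381 and 552 TPM, and Cidec at 351, 492, 494, 315 and 572 TPM and 676, 572, 788, 426 and 885 TPM, with 4 and 3 of 5 mice on HFD above all on LFD. Groups parted with HFD higher for none of the 8 genes and for 5.01% of all genes. All 8 log2 fold changes were above 0, with a median of 0.39 against 0.00 over all genes. In control mice 7 of 8 were above 0, with a median of 0.38 against -0.04. The medians depended on single mice: without control mouse 11 on HFD that of control mice was 0.18, with 6 of 8 above 0, and without knockout mouse 21 on HFD that of the knockout was 0.24, with 8 of 8 above 0.

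**Figure D3:**
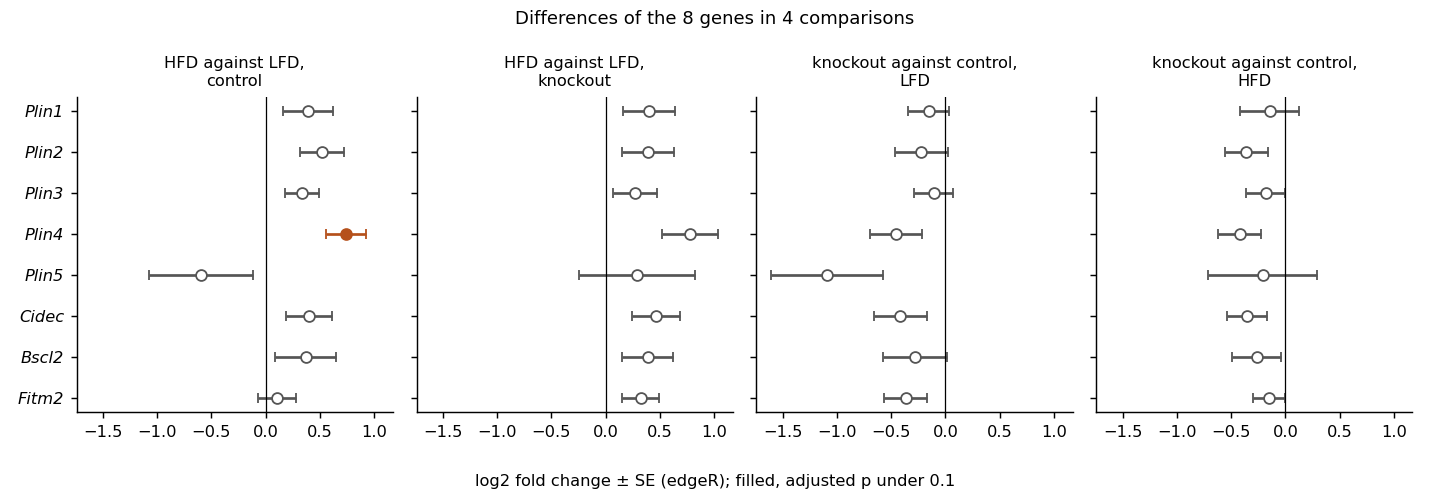
log2 fold change with its SE (x axis) of each gene (y axis) in the 4 comparisons, from edgeR on the counts, with filled points for an adjusted p under 0.1. Plin4 in control mice is the only filled point, and all 16 differences of knockout against control lie below 0.

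The summed TPM of marker genes of the cells in the depot was compared between the same groups. In all, 56 comparisons of sums were made, with two-sided exact permutation tests. White adipocyte markers, none of which is among the 8 genes, stood 0.52 higher on HFD in control mice and 0.63 higher in the knockout on the log2 scale (exact permutation p = 0.00794 each, adjusted 0.0741). Abundant genes carry this sum. By edgeR only Lep, the leptin gene, rose among the 12 markers in control mice (2.10 ± 0.38, adjusted p = 0.0105), while Adrb3, an adrenergic receptor, fell by 0.90 (SE 0.24, adjusted p = 0.0544). Another 4 stood below 0, with log2 fold changes from -1.20 for Cfd to -0.10 for Retn, and the median of the 12 was 0.11. In the knockout Lep alone was called (2.41 ± 0.33, adjusted p = 0.00261), and the median was 0.24. Endothelial markers stood 0.68 and 0.47 higher (adjusted p = 0.178 and 0.185 by exact permutation), fat progenitor markers 0.29 and 0.56 (adjusted 0.234 and 0.0741) and macrophage markers 0.23 and 0.15 (adjusted 0.190 and 0.649). Lymphocyte markers differed by 0.56 and -0.32 (adjusted 0.719 and 0.656), mammary markers by -0.23 and 0.46 (adjusted 0.521 and 0.370), slow muscle genes by -0.98 and 0.86 (adjusted 0.370 and 0.545) and fast muscle genes by -3.19 and 1.13 (adjusted 0.234 and 0.655). Of these cell marker sums, only those of white adipocytes in both genotypes and of fat progenitors in the knockout passed an adjusted p under 0.1. Among the 56, the diet differences of 7 genes linked to lipodystrophy also passed, at 0.77 in control mice and 0.81 in the knockout. The sum of 8 regulators passed in the knockout, at 0.43 (exact permutation p = 0.00794 each, adjusted 0.0741). Both lists are described below. By edgeR, 11 of the 12 single fast muscle genes fell in control mice and none was called in the knockout. The part of these cells in the diet differences of the 8 genes was not tested.

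Between the genotypes no gene of the 8 passed the test on either diet. All 8 were lower in the knockout on HFD, with log2 fold changes between -0.42 ± 0.20 for Plin4 and -0.14 ± 0.27 for Plin1 and a median of -0.24 against 0.01 over all genes. Without control mouse 11 the median was -0.06, with 1 gene above 0, and without knockout mouse 21 it was -0.39. edgeR called 0.00657% of 15228 genes in this comparison, which is 1 gene, and gave an adjusted p of 0.999 for each of the 8. Over all genes 709 had an unadjusted p under 0.05, and DESeq2 called 100, none of them among the 8. For Plin2 4 of 5 knockout mice on HFD lay below all 5 control mice, for Plin4 4 of 5 and for Cidec 3 of 5. Knockout mouse 21 was the exception for both perilipins, at 552 TPM for Plin2 and 465 TPM for Plin4. Groups parted with the knockout lower for 0 of the 8 genes and for 0.151% of all genes. The sum of fast muscle genes differed by 4.83 on the log2 scale between the genotypes on HFD. Its exact permutation p was 0.0159, and 0.127 adjusted over 56 sums. By edgeR none of its 12 genes was called, with 12 above 0 and a median of 5.24. The study, using DESeq2 at the same adjusted p, reported mostly muscle genes among those higher in the knockout on HFD. The mean of the fast muscle sum was 21.2 TPM in controls and 798 TPM in the knockout. White adipocyte markers summed to 54742 and 51949 TPM in the same groups. The log2 fold changes of the 8 genes come from counts with TMM scaling and not from TPM. The part of muscle in these differences was not tested.

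The sum over the 8 genes describes the same values. On HFD it was from 1814 to 2481 TPM in controls, against 1295 to 2377 TPM in knockout mice. On LFD it was from 1082 to 1510 TPM in controls, against 773 to 1325 TPM in knockout mice. On HFD white adipocyte markers summed to 54742 ± 7440 TPM in controls, against 51949 ± 5730 TPM in knockout mice (exact permutation p = 0.548, adjusted 0.713). The groups' difference in those markers on HFD was smaller than its spread. On LFD their sum differed by -0.18 on the log2 scale (exact permutation p = 0.119, adjusted 0.303). By single genes on HFD the median log2 fold change of the 12 markers was -0.05, with 5 above 0. For 5 genes of lipolysis it was -0.24, with 0 above 0, and for 18 other droplet surface genes -0.03, with 9 above 0.

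On LFD all 8 genes were again lower in the knockout, with a median log2 fold change of -0.32 against -0.02 over all genes, and none was called. Without control mouse 4 the median was -0.17, with 1 gene above 0, and without knockout mouse 9 it was -0.21. edgeR called 0.00636% of 15717 genes, again 1 gene. Over all genes 803 had an unadjusted p under 0.05, and DESeq2 called 17, none of the 8 among them. Groups parted with the knockout lower for 0 of the 8 genes and for 0.102% of all genes. Plin5 had the largest difference at -1.09 ± 0.52 (edgeR adjusted p = 0.929). It was at 1.23, 1.43, 3.37, 6.18 and 3.64 TPM in control mice on LFD, against 1.27, 3.12, 2.42, 0.906 and 0.628 TPM in knockout mice on LFD, and all 5 knockout mice lay below the control mean while the groups overlapped. Other lists also stood low in the knockout on LFD. The median log2 fold change was -0.27 for 5 genes of lipolysis, with 0 above 0. It was -0.22 for 12 white adipocyte markers, with 1 above 0, and -0.35 for 6 fat progenitor markers, with 0 above 0. For 19 other droplet surface genes it was -0.09, with 6 above 0. For 10 brown and beige fat genes it was -0.80, with 1 above 0, and for 12 fast muscle genes -0.79, with 0 above 0. The sum of the fast muscle genes differed by 0.52 on the log2 scale (exact permutation p = 0.770, adjusted 0.845). Lymphocyte markers went the other way, with a median of 0.44 and 4 of 4 above 0. Mammary markers were mixed, with a median of 0.14 and 5 of 9 above 0. The mammary sum differed by -0.49 on the log2 scale (exact permutation p = 0.0794, adjusted 0.234). The HFD and LFD comparisons use separate mice. The genotype and diet comparisons share groups of mice, so their values are given side by side and not as separate support.

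The difference between the genotype effects on HFD and LFD was tested in 1 fit over all 20 libraries. edgeR called 0% of 15574 genes, with 560 at an unadjusted p under 0.05, and DESeq2 called 17. None of the 8 genes was called by either. The differences lay between -0.15 ± 0.33 for Plin2 and 0.87 ± 0.77 for Plin5 (edgeR adjusted p = 0.99993 for each), and for Plin4 the value was 0.02 ± 0.32.

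Plin5 had the lowest level of the 8 genes. It is the perilipin of heart, oxidative muscle and brown fat, where it links droplets to mitochondria. In control mice on HFD it was at 3.81, 3.08, 2.94, 1.67 and 0.874 TPM and in the knockout on HFD at 4.60, 0.537, 1.58, 1.55 and 2.11 TPM. The highest values were those of control mouse 4 on LFD and knockout mouse 17 on HFD, at 6.18 and 4.60 TPM. In these mice 10 brown and beige fat genes (Ucp1, Cidea, Cox7a1 and others) also summed to the most, at 793 and 817 TPM. Over the 20 libraries Pearson's r between the logs of Plin5 and this sum was 0.81, and 0.93 after each group's mean was removed. For the other 7 genes r lay between -0.40 for Plin2 and 0.31 for Fitm2. With group means removed it lay between -0.19 for Plin2 and 0.64 for Fitm2, and was 0.57 for Bscl2, 0.56 for Plin3, 0.51 for Plin1 and 0.32 for Plin4, so the sum also went with other members. The list holds 5 genes that fell on HFD in control mice, Cidea, Cox7a1, Elovl3, Ppargc1a and Slc27a2, and its sum differed by -1.42 on the log2 scale (exact permutation p = 0.0714, adjusted 0.234). Plin5 was also related to the share of counts taken by the 10 most abundant genes of a library (r = 0.82), and that share's part was not tested. Between the genotypes on HFD the brown and beige sum stood 0.78 higher in the knockout (exact permutation p = 0.254, adjusted 0.508). There 10 of its 10 genes were above 0 by edgeR, while Plin5 was at -0.21 ± 0.50. On LFD the sum differed by -0.72 (exact permutation p = 0.325, adjusted 0.569), with 1 of 10 genes above 0. Plin5 was there at -1.09 ± 0.52. The correlations are descriptions over 20 libraries and carry no test.

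**Figure D4:**
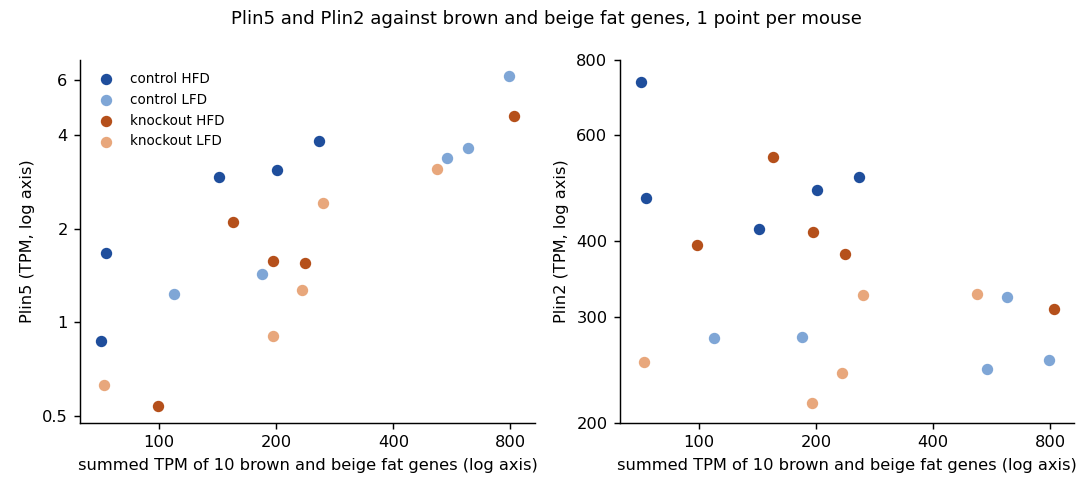
Level of Plin5 and Plin2 in TPM (y axes, log) against the summed TPM of 10 brown and beige fat genes (x axes, log), with 1 point per mouse in the colours of the 4 groups. Plin5 follows the sum across all groups (r = 0.81), and Plin2 does not (r = -0.40).

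Among the other 7 genes every pair was positively correlated over the 20 libraries, with r between 0.59 and 0.90. The closest pairs were Plin1 with Plin3, Bscl2 with Fitm2 and Plin1 with Fitm2, each at 0.90. With group means removed, r lay between 0.33 and 0.44 for pairs with Plin2 and between 0.41 and 0.89 for the other pairs. The 7 genes also went with the total count of a library, with r between 0.35 for Plin2 and 0.79 for Fitm2, so depth is shared by these points.

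The genes most like each of the 8, of 9298 with a mean of at least 5 TPM, were named by a rule and not chosen by function. Nearest to Plin4 were Anxa6 (r = 0.96), Tusc5 (0.95) and Anxa2 (0.94), of which Tusc5 is a fat protein that acts in the traffic of the glucose transporter Slc2a4. Nearest to Cidec were Iscu (0.91), Acsl1 (0.90) and Pla2g16 (0.89). Acsl1 activates fatty acids for triglyceride synthesis, and Pla2g16 is a phospholipase of adipocytes. Nearest to Plin3 was Lmna (0.96), the nuclear lamin gene mutated in a partial lipodystrophy, before Acaa1a and Prdx6. Plin5 was nearest to Samm50 (0.93), Prdx3 (0.92) and Bckdha (0.91), which all encode mitochondrial proteins. Bscl2 was nearest to Ctsd, Mrap and Tecr (0.96, 0.96 and 0.95), and Plin1 to Smpd1, Grina and Dnajc14 (0.95 each). Plin2 was nearest to Cdr2, Vps4a and Hfe (0.95, 0.94 and 0.93), and Fitm2 to Higd2a, Dolk and Tpi1 (0.96 each). With group means removed, r fell to 0.77, 0.78 and 0.75 for the genes nearest to Cidec. It was 0.84, 0.80 and 0.74 for those nearest to Plin2, and 0.89, 0.88 and 0.80 for those nearest to Plin4. For the nearest genes of the other members it lay between 0.92 and 0.97.

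The rest of the droplet pathway changed with diet in a few genes. Of 21 other droplet surface genes, 19 were tested in control mice and 4 were called, 2 higher and 2 lower. Over all genes 9.32% were called in control mice and 9.4% in the knockout, and the counts of each of the lists stand against these shares. Mettl7b rose by 1.47 ± 0.25 and 2310016C08Rik (Hilpda, an inhibitor of the lipase Pnpla2) by 1.55 ± 0.34 on the log2 scale, with edgeR adjusted p-values of 0.00816 and 0.0261. Cidea, a relative of Cidec found in brown fat, fell by 2.58 (SE 0.54, adjusted p = 0.0216). Vps13c, a lipid transfer protein, fell by 0.72 in control mice and by 0.93 in the knockout (SE 0.15 and 0.14, adjusted p = 0.0233 and 0.00362). In the knockout Faf2 and 1110057K04Rik (Ldah, a droplet hydrolase) rose, at 0.32 ± 0.10 and 0.45 ± 0.10.

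Of 5 genes of lipolysis, Mgll, which releases the last fatty acid from monoglyceride, rose in control mice (0.61 ± 0.19, edgeR adjusted p = 0.0865) and no other was called. Of 10 genes of triglyceride and phospholipid synthesis, Agpat9 and Acsl3 rose in the knockout, at 0.45 ± 0.10 and 1.003 ± 0.211 (adjusted p = 0.0241 and 0.0193), and none was called in control mice. Of 8 regulators, Ppara and Ppargc1a, which drive fatty acid oxidation, fell in control mice by 1.28 and 0.76 (SE 0.32 and 0.15, adjusted p = 0.0428 and 0.0151). Pparg, the master regulator of adipocyte genes, rose in the knockout (0.46 ± 0.13, adjusted p = 0.0653). In the interaction fit none of these genes was called, against 0% of 15574 genes. With no call over all genes, that fit cannot say which of them differed between the genotypes in their response to diet. Its values were -0.06 ± 0.35 for Mgll, 0.41 ± 0.20 for Agpat9 and 0.69 ± 0.29 for Acsl3. For Ppara, Ppargc1a and Pparg they were 0.88 ± 0.54, 0.30 ± 0.36 and 0.35 ± 0.18 (edgeR adjusted p = 0.99993 for each of the 6 genes).

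Of 7 genes linked to lipodystrophy, Pparg, Lipe and Agpat2 also belong to the lists above. Of the other 4, Cav1 and Ptrf, which build the caveolae of the adipocyte surface, rose on HFD in both genotypes. Ptrf rose by 0.92 ± 0.15 in control mice and 1.12 ± 0.20 in the knockout (edgeR adjusted p = 0.00723 and 0.00799). Cav1 rose by 0.82 ± 0.21 and 0.89 ± 0.20 (adjusted p = 0.0510 and 0.0247). None of the genes of these 5 lists was called between the genotypes on either diet.

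Promoters of the genes were read from RefSeq on GRCm38.p6, a later assembly than that of the counts, as 250 bases before and 50 after each annotated start. All 8 genes matched, with 12 starts. The motif AGGTCA, which nuclear receptors such as PPARG with RXRA bind as a direct repeat, was searched on both strands and lay in 4 of the 12 promoters, those of Plin2, both of Plin5 and 1 of Bscl2, against 16.3% of 32851 promoters. The direct repeat of this site with 1 base between lay in none of the 12 and in 0.0396% of all promoters. CCAAT lay in 5 of the 12, in Plin2, Plin3, Plin4, Plin5 and Bscl2, against 37.4% of all. The promoters of Plin4, the gene called on HFD, and of Plin2 are shown with both motifs, on either strand, in capitals:
Plin4, chr17:56109733-56110032, minus strand: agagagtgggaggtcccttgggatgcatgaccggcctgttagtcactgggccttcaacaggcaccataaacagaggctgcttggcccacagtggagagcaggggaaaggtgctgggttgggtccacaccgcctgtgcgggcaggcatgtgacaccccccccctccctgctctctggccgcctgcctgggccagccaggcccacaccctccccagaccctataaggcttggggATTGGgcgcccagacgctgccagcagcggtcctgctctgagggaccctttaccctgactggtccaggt
Plin2, chr4:86670010-86670309, minus strand: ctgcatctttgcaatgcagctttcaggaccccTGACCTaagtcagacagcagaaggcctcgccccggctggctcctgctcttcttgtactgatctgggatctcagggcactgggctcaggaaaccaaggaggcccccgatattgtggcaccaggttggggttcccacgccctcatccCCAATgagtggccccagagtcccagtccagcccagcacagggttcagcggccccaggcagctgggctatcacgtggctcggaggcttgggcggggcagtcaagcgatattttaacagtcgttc

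A match describes letters and not a bound site. Plin4 holds a single CCAAT match in reverse orientation, whose first letter lies 18 bases before its start, and no AGGTCA in this window. Plin2 holds AGGTCA in reverse orientation, with its first letter 218 bases before the start. Plin5 holds AGGTCA in each of its 2 promoters. The part of these matches in the diet differences was not tested.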

How the data were processed

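The authors quantified paired reads of ribosome-depleted, stranded total RNA with Salmon 0.13.1 on Ensembl transcripts of NCBIM37 (mm9). They deposited estimated counts and TPM per transcript, without normalization between libraries. STAR 2.5.3 is also named in their processing notes. Whether the deposited values passed through that alignment is not given in the sources used here.

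Transcripts were summed per gene with GENCODE vM1, which held 97.7% of 96533. Sums of the estimated counts were rounded and tested with edgeR 4.0.16 (quasi-likelihood, TMM scaling, R 4.3.3) on the 2 groups compared, over genes whose mean reached 0.5 TPM, with Benjamini-Hochberg adjustment over all of them. An adjusted p under 0.1 counted as a call, as in the study's methods, which used DESeq2. The interaction used all 20 libraries. SE is the log2 fold change over the root of F. Alternatives were RLE scaling, no filter, DESeq2 1.42.0, length offsets, limma 3.58.1 on log2(TPM + 1) and log2(TPM + 0.1), 1 fit over all libraries, and leaving out each library. Single values were compared by two-sided exact permutation over all assignments of 5 mice against 5, whose smallest p is 0.00794. Fits were tested on simulated data. Named genes were the 8 members, Tmem120a, called genes of the lists, and the 3 genes most correlated with each member on log2(TPM + 1). The members, gene lists and tests were chosen with earlier results of these data known. Lists of macrophage, slow muscle, mammary, progenitor, endothelial and lymphocyte markers were also summed. No label names a batch, so within-batch values could not be had.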

Additional observations from a re-analysis of the deposited data

Results flagged for a closer look

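In 2 of the 32 sets of 5 mice, 1 library's level lay far from the rest by Dixon's criterion, which chance meets in about 1 of 20 sets. Both concern Bscl2. Control mouse 4 on LFD was at 115 TPM, where the next mouse was at 63.3 TPM and the gap made up 0.716 of the group's range. Knockout mouse 21 on HFD was at 141 TPM, where the next was at 78.3 TPM and the gap made up 0.772 of the range. Without control mouse 4 the diet difference of Bscl2 in control mice passed the test (0.70 ± 0.20, edgeR adjusted p = 0.0723), against 0.37 ± 0.28 with it. Without knockout mouse 21 the diet difference of Bscl2 in the knockout was 0.18, against 0.39 with it.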

How the results depend on the processing

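No paired analysis was possible because the replicate numbers of the 4 groups do not overlap. Of 8 genes, 1 was called for diet in control mice; DESeq2 and length offsets called 2, limma with either pseudocount 3, and leaving out 1 library gave between 0 and 3. In the knockout none was called; DESeq2 and the fit over all libraries called 1, limma with either pseudocount 2, and leaving out 1 library gave between 0 and 1. Between genotypes and for the interaction none of the 8 was called under any alternative. No fold change larger than its SE changed sign. Leaving out control mouse 11 on HFD took the genotype difference of Plin1 on HFD from -0.14 to 0.09, and leaving out control mouse 4 took that of Bscl2 on LFD from -0.28 to 0.05. Calls over all genes depended on the fit: DESeq2 called 100 for genotype on HFD, 17 on LFD, 2205 for diet in control mice, 2247 in the knockout and 17 for the interaction, and no filter called 26 on HFD. limma on log2(TPM + 0.1) called 2148 for diet in control mice. Leaving out 1 library moved the counts between 1 and 58 for genotype on HFD (58 without knockout mouse 21), between 780 and 1845 for diet in control mice and between 753 and 1355 in the knockout. The causes were not tested. Multiplying TPM by the TMM factor or, an alternative added after the data were seen, dividing by it moved no group mean of the 8 genes by more than its SD. With 5 mice a group and SEs of 0.15 to 0.52 between genotypes, differences of the size seen could not be told from the spread.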
